A study of Mus musculus with 6 samples.

Results

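The gasdermin family was examined in mouse jejunal epithelium from mice labelled as carrying an inducible transgene of the RNA-binding protein MSI2, and from controls. The 7 member genes are Gsdmc, Gsdmc2, Gsdmc3, Gsdmc4, Gsdmd, Gsdma and Dfna5, the older symbol of Gsdme. They were chosen by family name after earlier results on the same contrast, induced against control arrays, had shown lower Gsdmc2 and Gsdmc4. Member differences on that contrast are therefore given as a description. No p-value is given for a member. The count of members past the threshold in the main fit stands beside that of all probe sets. Counts under other fits are given without such a share, and nothing is read from them. Of 28350 probe sets on the array, 9 named members and no other gene. Of these, 7 named a single member and 2 were shared, so that 6 members had a probe set of their own and Gsdmc3 was read only through a shared one. The whole array represented 19933 genes by a probe set naming them alone.

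Gasdermins are made as inactive proteins whose N-terminal part is held back by the C-terminal part. Cleavage by caspases or granule proteases frees the N-terminal part, which assembles into membrane pores, lets small cargo such as mature interleukin 1 family cytokines leave the cell, and can end in the lytic death called pyroptosis. GSDMD is the target of the inflammatory caspases 1 and 11 (the latter encoded by mouse Casp4), GSDME is cut by caspase 3, and the mouse Gsdmc genes form a tandem cluster known for expression in gut epithelium and for induction in type 2 immunity. Gsdma is best known from skin and upper gut epithelium.

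The 3 control mice carried M2rtTA, the doxycycline-dependent transactivator, at the Rosa26 locus (R26-M2rtTA). The 3 MSI2-induced mice, titled transgenic, carried it together with a tetracycline-responsive MSI2 transgene (TRE-MSI2::R26-M2rtTA). All 6 mice, controls included, drank doxycycline for 24 hours, and the Rosa26 locus is active in many tissues, so the transgene is not limited to epithelium by its driver. Total RNA of epithelial cell preparations from the jejunum was hybridised to Affymetrix Gene 1.0 ST arrays, 1 per sample. The labels call the samples biological replicates and give no age. The comparison asks which transcripts differ after 1 day of induction. Expression values are log2 units per probe set, and differences are MSI2-induced minus control.

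Array medians lay between 6.42 and 6.46. Msi2 was at 11.30, 9.53 and 9.32 in control replicates 1 to 3 and at 11.23, 10.58 and 11.44 in the induced replicates, so control replicate 1 lay in the range of the induced arrays and the difference of 1.03 ± 0.55 (SE) did not pass (adjusted p = 0.282 in limma). Without control replicate 1 it was 1.66 and passed (adjusted p = 0.0108), as it did with array weights (1.60, adjusted p = 0.0166). The probe set that followed the labels was that of its paralog Msi1, with means of 7.60 in controls and 13.26 in induced arrays. The reason was not tested, so groups and every direction below are those of the labels, the word induced included. Control replicate 1 correlated with the other controls by 0.981 and 0.982 over all probe sets, which correlated with each other by 0.996. Epithelial markers were high in both groups, with list means per array of 12.40 to 12.54 in controls and 12.55 to 12.71 in induced arrays. All 10 T cell and intraepithelial lymphocyte markers had lower means in induced arrays and 9 passed in limma, with list means of 8.17 to 8.65 against 6.18 to 7.12. Crypt base and progenitor markers ran from 9.59 to 9.91 in controls and from 8.62 to 8.99 in induced arrays, and 3 of 7 fell. Villus tip markers ran from 8.94 to 10.98 and from 11.28 to 11.85, and 2 of 6 rose. For comparison, 16.9% of all genes represented once passed in either direction. Like Gsdmc2 and Gsdmd, the villus tip list was lowest among controls on replicate 1, at 8.94 against 10.85 and 10.98. The part of these lists in the results below was not tested, and in bulk RNA fewer cells of a type and less RNA per cell cannot be told apart. A floor was read from Xist in male and Y-linked genes in female animals, sex having been read from the same genes. These 12 values ran from 4.07 to 5.06, and a probe set in that range cannot be told from one without its target.

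Promoter sequences of 2 of the 7 members, Gsdmc3 and Gsdme, were in the RefSeq promoter table of build GRCm38.p6. They are shown because Gsdmc3 lies in the tandem cluster, whose readings differed most, and Gsdme lies apart from it on another chromosome. Each runs 5′ to 3′ from 250 bases before to 50 after the start site, on the minus strand at chr15:63878509-63878808 and chr6:50261720-50262019, with CpG dinucleotides in capitals.
Gsdmc3: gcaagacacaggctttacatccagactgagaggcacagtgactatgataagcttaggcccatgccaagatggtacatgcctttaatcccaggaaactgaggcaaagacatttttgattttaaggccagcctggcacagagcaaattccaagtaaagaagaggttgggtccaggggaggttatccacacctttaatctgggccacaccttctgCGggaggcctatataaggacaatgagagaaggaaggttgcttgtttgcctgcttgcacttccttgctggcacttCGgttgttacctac
Gsdme: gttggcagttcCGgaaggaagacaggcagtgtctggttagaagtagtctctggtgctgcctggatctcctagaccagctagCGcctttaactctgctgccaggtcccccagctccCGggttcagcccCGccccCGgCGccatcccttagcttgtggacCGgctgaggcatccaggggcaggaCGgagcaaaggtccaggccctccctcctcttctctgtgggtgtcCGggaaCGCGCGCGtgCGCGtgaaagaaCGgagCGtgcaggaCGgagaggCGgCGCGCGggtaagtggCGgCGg

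The Gsdmc3 window held 2 CpG dinucleotides and 48.3% G and C, and 14.1% of all promoter windows in the table held fewer CpG. The Gsdme window held 24 CpG and 65.7% G and C, and 80.0% held fewer. The medians over 32851 windows were 7 CpG and 52.7% G and C. Both windows were searched on both strands for the TATA box TATAAA, the CCAAT box, the SP1 motif GGGCGG, the GATA motif AGATAA, the HNF4 motif CAAAGTCCA and the E-box CAGCTG. They were also searched for the STAT motif TTCNNNGAA, its STAT6 form with 1 more base in the gap, and an interferon response motif of GAAA repeated after 2 bases, which can share bases with the STAT motifs. The only match was GGGCGG on the opposite strand of the Gsdme window, a motif that 35.7% of windows hold. Only these exact strings were searched. Other forms of a motif, such as TATATAAG and TGATAA, which the Gsdmc3 window holds, were not counted, so absence of a site cannot be read from this search. The other motifs occurred in between 0.475% (CAAAGTCCA) and 37.4% (CCAAT) of windows.

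Transcripts of the Gsdmc2, Gsdmc3 and Gsdmc4 group were lower in every induced array than in every control. Mean differences were 10.6-fold to 13.6-fold on 3 probe sets and 3.6-fold on a dimmer one. They depended on which control array was left out. Gsdmc2, a tandem cluster member, was at 8.23, 10.20 and 10.48 in controls and 5.82, 5.45 and 6.35 in induced arrays. The lowest control lay 1.88 above the highest induced array. Means were 9.64 ± 1.23 against 5.87 ± 0.45 (SD, n = 3 each), a log2 difference of -3.77 with a standard error (SE) of 0.61, or 13.6-fold. Gsdmc4, the cluster's last gene, was at 6.94, 7.65 and 9.56 in controls and at 4.70, 4.29 and 4.52 in induced arrays. All 3 induced values lay in the floor range, so the measured difference of -3.55 ± 0.64 (SE), or 11.7-fold, is limited by the floor.

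The probe set shared by Gsdmc2, Gsdmc3 and Gsdmc4 read 7.71, 8.86 and 9.95 in controls and 5.38, 5.08 and 5.83 in induced arrays. It differed by -3.41 ± 0.55 (SE), or 10.6-fold, and is the only reading of Gsdmc3, which cannot be separated there from its neighbours. Its induced value of 5.08 lay just above the floor range, so the floor may limit this difference too. A dimmer probe set shared by Gsdmc2 and Gsdmc4 read 5.11, 5.19 and 6.89 in controls and 3.88, 3.85 and 3.92 in induced arrays. Its control values were near the floor on replicates 1 and 2, its induced values lay below the floor range, and its difference was -1.85 ± 0.47 (SE). Without control replicate 1, the array that stood apart, the differences were -4.47 for Gsdmc2, -4.10 for Gsdmc4 and -3.98 for the probe set of all 3 genes, or 22.2-fold, 17.2-fold and 15.7-fold. Without control replicate 3 they were -3.34, -2.79 and -2.86, or 10.2-fold, 6.94-fold and 7.24-fold. On all 4 of these probe sets control replicate 1 was the lowest and control replicate 3 the highest control, with control ranges of 2.25 for Gsdmc2 and 2.61 for Gsdmc4. The paralogs share long stretches of sequence and could share probes, so the 4 readings are not independent and the single-gene assignment is uncertain.

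**Figure D1:**
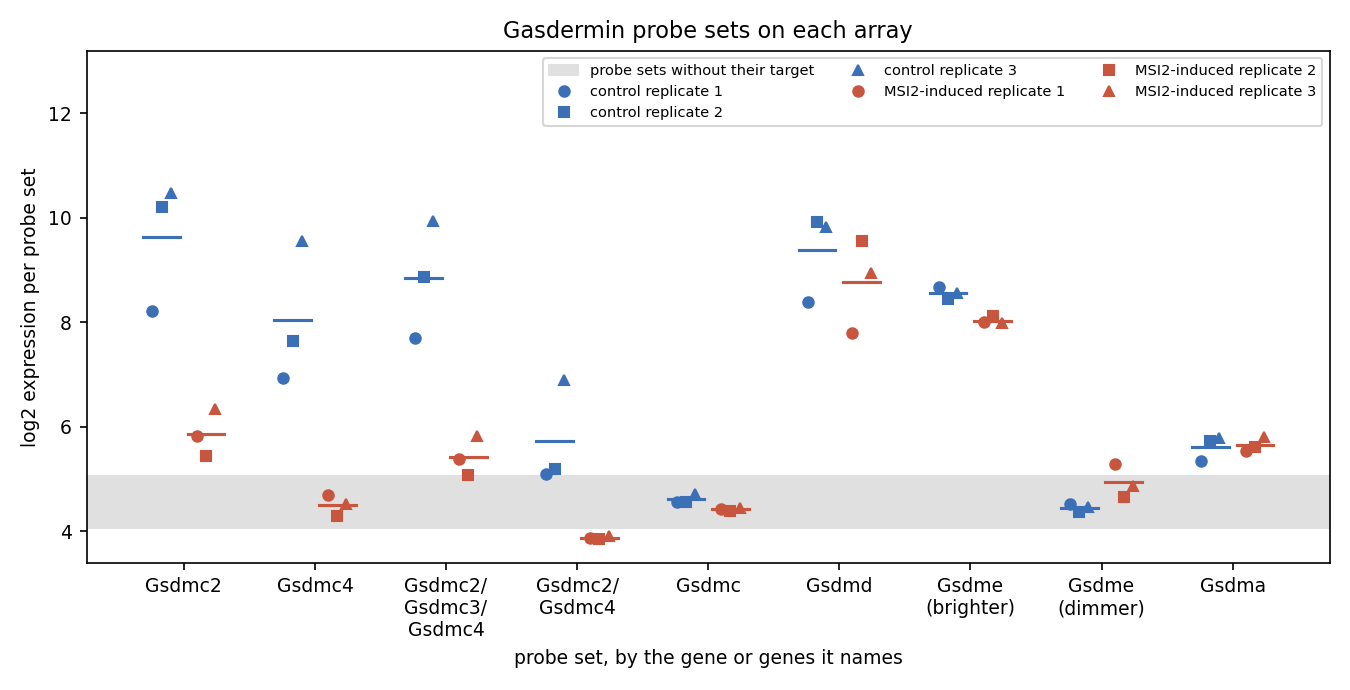
Log2 expression (vertical axis) of the 9 gasdermin probe sets (horizontal axis, named by the gene or genes they read) on each of 3 control and 3 MSI2-induced arrays, with group means as bars and the floor range of 4.07 to 5.06 in grey. The Gsdmc2 and Gsdmc4 probe sets separate the groups, Gsdmd spreads within both groups, and heights of different probe sets are not comparable with each other.

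Gsdmc, the cluster's first gene, lay in the floor range on all 6 arrays. It was at 4.56, 4.57 and 4.72 in controls and 4.43, 4.39 and 4.45 in induced arrays, a difference of -0.19 ± 0.08 (SE), and no level can be read from it. Transcribed pseudogenes lie between and beside the cluster's genes in RefSeq's order. Gsdmcl-ps was at 5.13 ± 0.18 in controls and 5.20 ± 0.11 in induced arrays (SD, n = 3 each), at or just above the floor. The 2 probe sets shared by Gsdmcl1, Gsdmcl2 and Gsdmcl-ps differed by 0.03 and -0.01. None of these 3 pseudogene probe sets was called in limma (adjusted p from 0.761 to 0.951).

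Gsdmd, the pore-forming target of inflammatory caspases, varied more within groups than between them. It was at 8.38, 9.92 and 9.83 in controls and at 7.80, 9.56 and 8.95 in induced arrays. Replicate 1 was the lowest array of each group and the groups overlapped. The means were 9.38 ± 0.86 and 8.77 ± 0.89 (SD, n = 3 each), and the difference was -0.61 ± 0.58 (SE). Between same-numbered arrays it was -0.58, -0.35 and -0.89, lower in each of the 3 pairs.

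The within-group spread of Gsdmd ran beside that of enterocyte markers. The mean of 10 enterocyte markers deviated from its 6-array mean by -0.19, 0.74 and 0.71 in controls and by -1.20, 0.31 and -0.36 in induced arrays. For Gsdmd the deviations were -0.69, 0.84 and 0.76, then -1.27, 0.49 and -0.13. Enteroendocrine, tuft, villus tip and epithelial marker lists were also lowest on replicate 1 of each group, so this trait was not particular to enterocyte markers. Goblet markers were lowest on control replicate 1 but on induced replicate 3, and T cell markers were highest among controls on replicate 1. None of the 10 enterocyte markers was called in limma, and 9 of them had lower induced means. For Gsdmc2 the deviations were 0.47, 2.45 and 2.73, then -1.93, -2.31 and -1.41. Among controls Gsdmc2 and the enterocyte markers were both lowest on replicate 1. The lowest array of Gsdmc2, induced replicate 2, was the induced array in which enterocyte markers were highest. Its value there was 5.45, not far above the floor range. The part of enterocyte content in either gene's values was not tested.

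**Figure D2:**
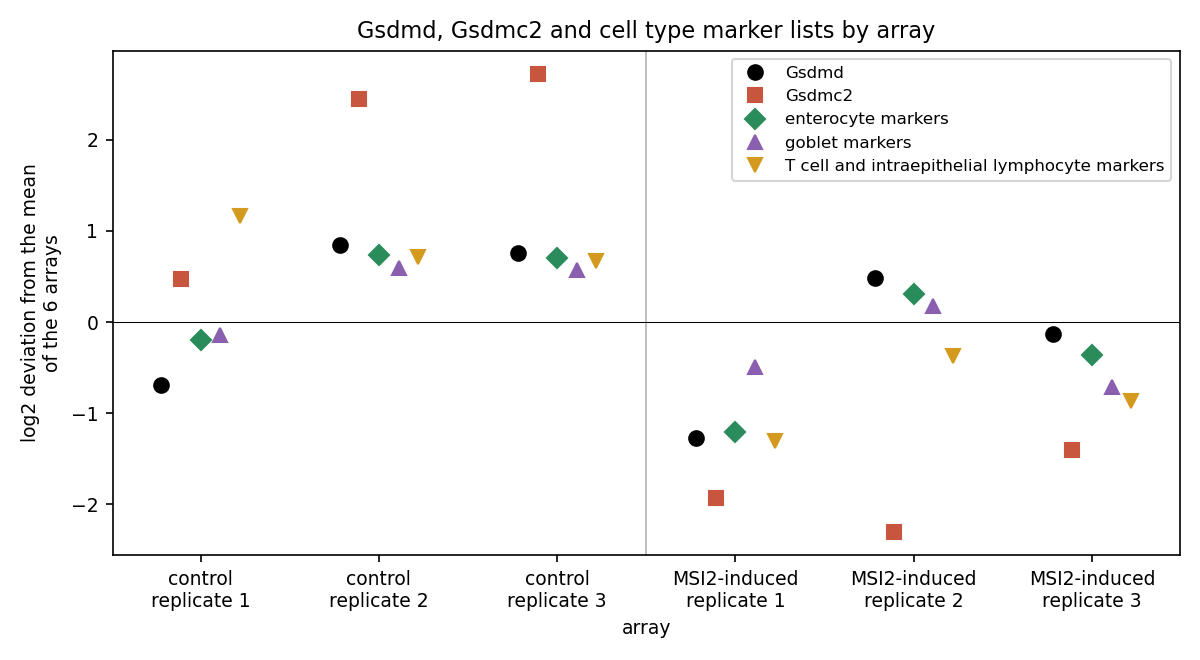
Deviation of Gsdmd, Gsdmc2 and the means of 3 cell type marker lists from their own mean over the 6 arrays (vertical axis, log2 units) on each array (horizontal axis). Gsdmd and the enterocyte markers are lowest on MSI2-induced replicate 1 at -1.27 and -1.20, whereas Gsdmc2 is lowest on MSI2-induced replicate 2 at -2.31. Among controls, Gsdmd, Gsdmc2 and the enterocyte markers are each lowest on replicate 1.

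Gsdme, the target of caspase 3, was read by 2 probe sets that differed in opposite directions. The brighter was at 8.68, 8.44 and 8.56 in controls and 8.01, 8.12 and 7.98 in induced arrays. Its groups did not overlap, and its difference of -0.52 ± 0.09 (SE), or 1.44-fold lower, was small. Between same-numbered arrays the difference was -0.67, -0.32 and -0.58. The dimmer probe set lay in the floor range on 5 of 6 arrays, at 4.52, 4.37 and 4.48 in controls and 5.30, 4.65 and 4.86 in induced arrays, with a difference of 0.48 ± 0.17 (SE). Gsdma was at 5.34, 5.74 and 5.80 in controls and 5.53, 5.61 and 5.82 in induced arrays, a little above the floor, and differed by 0.03 ± 0.15 (SE) with overlapping groups.

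In the fit across all probe sets, 4 of the 9 member probe sets passed an adjusted p under 0.05 in limma, all lower, where 7.33% of all probe sets were called lower and 7% higher. They were those of Gsdmc2, Gsdmc4, the Gsdmc2/Gsdmc3/Gsdmc4 group and the brighter one of Gsdme. Groups did not overlap for 7 of 9 member probe sets, 6 lower and 1 higher, against 33.3% of all probe sets in either direction. Nothing is read from these counts, since the members were chosen with this contrast known. The median difference was -0.61 over the 9 probe sets and 0.02 over all probe sets. When arrays were paired by replicate number, 6 member probe sets passed, Gsdmd and the Gsdmc2/Gsdmc4 group being added. None passed without MSI2-induced replicate 1 or without replicate 3, 1 without control replicate 2, 3 without control replicate 3, and 2 when animal sex was added to the fit. The share of all probe sets called in these other fits is not given, so the changes are not read as particular to gasdermins.

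**Figure D3:**
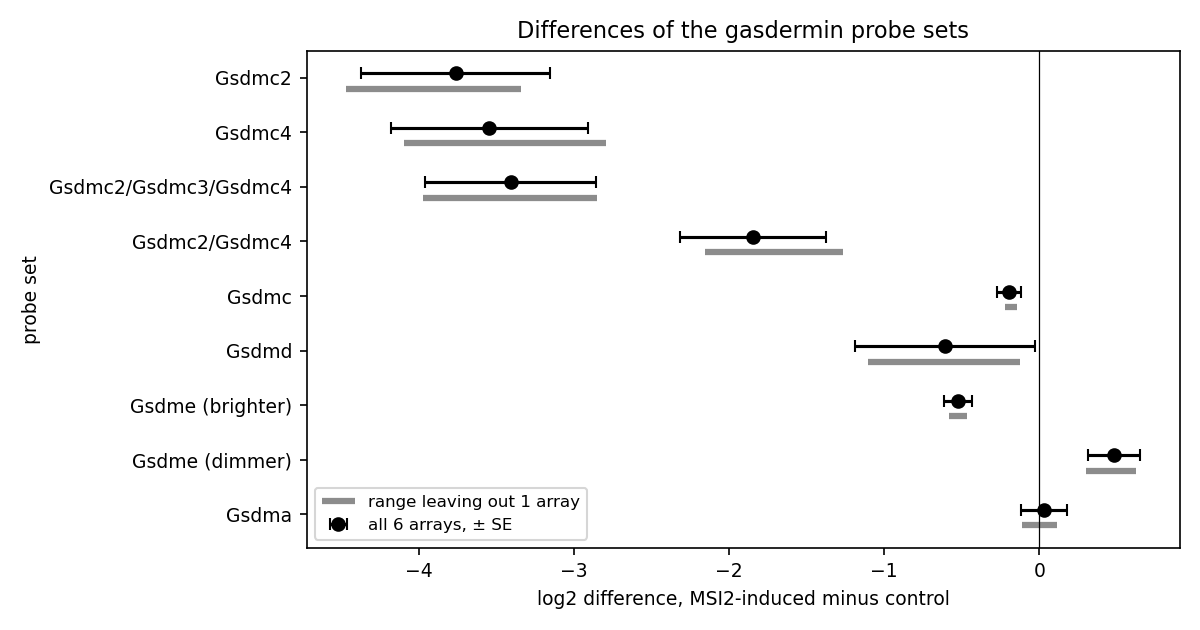
Log2 difference, MSI2-induced minus control, (horizontal axis), of each gasdermin probe set (vertical axis) with its moderated standard error, and in grey the range of the difference when each array in turn is left out. The Gsdmc2 range runs from -4.47 to -3.34 and that of Gsdmd from -1.10 to -0.12, whereas that of Gsdma spans zero.

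The other 3 genes of the family were dim. Pjvk, which encodes the gasdermin relative pejvakin known from hearing, was at 4.52 ± 0.04 in controls and 4.99 ± 0.17 in induced arrays (SD, n = 3 each). Its difference of 0.46 passed in limma (adjusted p = 0.0325) and was higher on 3 of 3 induced arrays, but 5 of its 6 values lay in the floor range and it did not pass without control replicate 3 (adjusted p = 0.12). Gsdma2 and Gsdma3 differed by -0.10 and 0.05 and did not pass (adjusted p = 0.44 and 0.85).

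Of the 4 genes measured next to the Gsdmc cluster, none was called lower and 1 was called higher. Over all genes represented once, 16.9% were called in either direction. In RefSeq's order on chromosome 15 the cluster is bordered by A1bg and Myc on one side and Cyrib and Asap1 on the other. Myc, the growth-promoting transcription factor gene, rose by 1.79 ± 0.37 (SE, adjusted p = 0.0286 in limma, and 0.109 without MSI2-induced replicate 3). Asap1, at 1.53 ± 0.39, Cyrib at 0.17 ± 0.08 and A1bg at -0.21 ± 0.08 did not pass (adjusted p = 0.0512, 0.238 and 0.163). A1bg had means of 4.79 in controls and 4.58 in induced arrays, both in the floor range, so a fall could not be read from it. Asap1 passed under 9 alternatives, among them arrays paired by replicate number (adjusted p = 0.0346) and array weights (adjusted p = 0.0121).

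Beside Gsdmd, also on chromosome 15, Naprt, an enzyme of NAD synthesis, differed by -2.01 ± 0.63, short of the threshold (adjusted p = 0.0872, but 0.0134 with arrays paired by number, 0.00539 with array weights and 0.00751 without control replicate 1). Mafa and Zc3h3 on its other side were at 0.03 and -0.09 (adjusted p = 0.918 and 0.743), and Mroh6 is not analysed here. Beside Gsdme on chromosome 6, Mpp6 rose by 0.96 ± 0.20 (adjusted p = 0.031, and 0.114 without MSI2-induced replicate 3). Npy, Osbpl3 and Cycs were at 0.42, -0.02 and -0.20 (adjusted p = 0.0524, 0.978 and 0.364), and Npy passed with array weights (adjusted p = 0.02) and with 1 probe set per gene (adjusted p = 0.0461). Beside the Gsdma genes on chromosome 11, the proteasome subunit gene Psmd3 rose by 0.79 ± 0.17 (adjusted p = 0.0317, and 0.119 without MSI2-induced replicate 3). Ormdl3, Lrrc3c and Csf3 were at 0.52, 0.11 and 0.21 (adjusted p = 0.209, 0.443 and 0.341), and Ormdl3 passed with arrays paired by number (adjusted p = 0.0254).

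**Figure D4:**
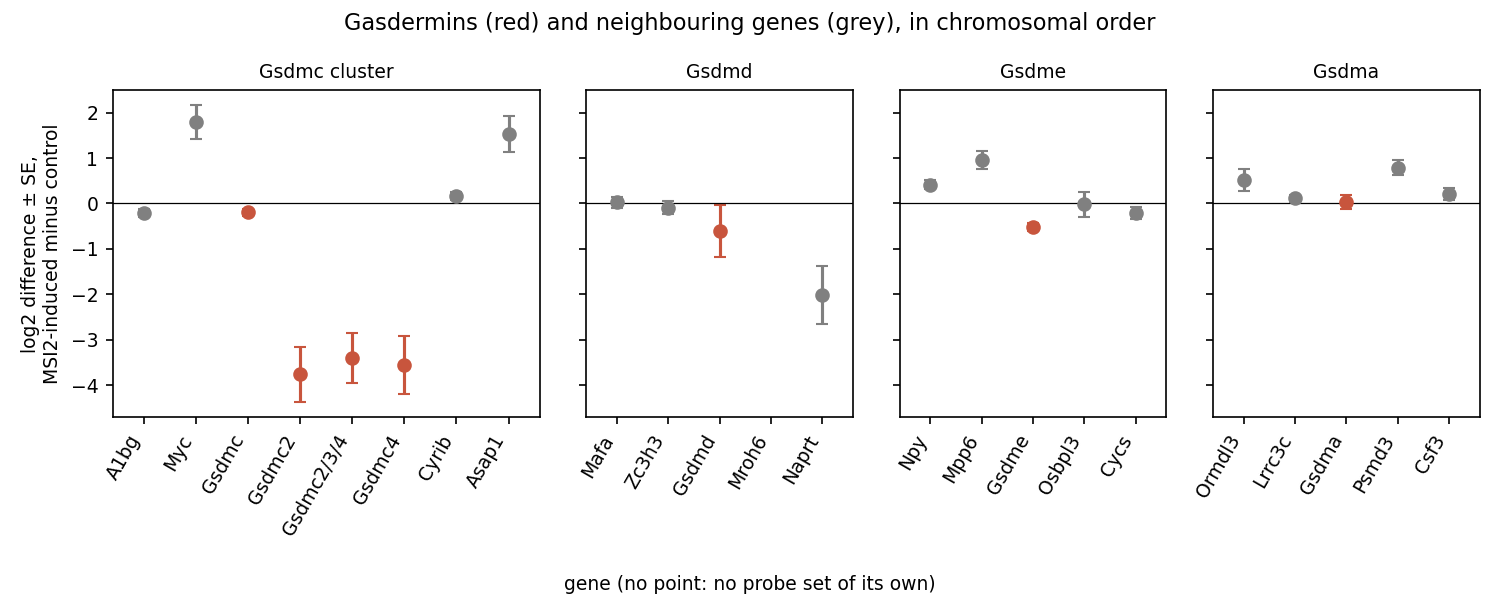
Log2 difference, MSI2-induced minus control, with standard error (vertical axis) of gasdermins in red and of the 2 protein-coding genes on each side in grey, in RefSeq's chromosomal order (horizontal axis). Gsdmc2, Gsdmc4 and the probe set shared by Gsdmc2, Gsdmc3 and Gsdmc4 lie at -3.77, -3.55 and -3.41, while Myc and Asap1 lie at 1.79 and 1.53, and Mroh6 has no point. The dimmer probe sets of Gsdmc2/Gsdmc4, at -1.85, and of Gsdme, at 0.48, are not plotted.

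The genes whose profile over the 6 arrays was most like that of Gsdmc2, by Pearson's r, were Zhx1 (0.999), C1qtnf12 (0.996), Ciita (0.996), Mettl27 (0.995) and Rph3al (0.994). Ciita, the activator of MHC class II transcription, was at 6.94, 7.49 and 7.69 in controls and at 5.97, 5.91 and 6.33 in induced arrays. Like Gsdmc2, it was lowest among controls on replicate 1, a likeness by which it was chosen. Over 6 arrays in 2 groups such values are common, and 568 genes had r above 0.95 with Gsdmc2. For Gsdmd the most alike were the transporter genes Slc30a2 (0.994), Slc6a8 (0.993) and Slc5a9 (0.993), the glycolysis regulator Pfkfb4 (0.992) and Tax1bp3 (0.992), and 112 genes had r above 0.95. Slc5a9 was at 8.18, 10.46 and 10.30 in controls and at 7.56, 9.66 and 8.86 in induced arrays. It was lowest on replicate 1 of each group as Gsdmd was, again a likeness by which it was chosen.

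Genes that act around the gasdermins moved in both directions. Of 74 measured genes in 8 lists of proteases, sensors, cargo, repair factors and regulators, 12 rose and 13 fell at an adjusted p under 0.05 in limma. That is 33.8%, where 16.9% of all genes represented once were called in either direction. Nothing is read from this share or from the list counts below, since the lists were chosen with earlier results of these data known. Their median difference was -0.002 against 0.02 over all genes. The counts were 5 and 5 without control replicate 3, 6 and 6 without control replicate 2, 6 and 8 without MSI2-induced replicate 1, and 6 and 5 without MSI2-induced replicate 3. Without control replicate 1 they were 14 and 22, and with animal sex in the fit 7 and 7. Another 8 listed genes are not analysed here.

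Among the proteases that cut gasdermins or act beside them, 5 of 10 fell and none rose, with a median difference of -0.51. Casp1, the inflammasome caspase that cuts GSDMD, was at 10.83, 10.74 and 10.75 in controls and at 10.03, 10.10 and 10.10 in induced arrays. Arrays of a group lay within 0.09 of each other, and Casp1 fell by 0.70 ± 0.07 (SE, adjusted p = 0.0045). Casp6, an effector caspase, fell by 2.02 ± 0.17 (adjusted p = 0.00327) and Casp12 by 0.48, to within the floor range (adjusted p = 0.0414, 0.0711 with arrays paired by number and 0.133 without MSI2-induced replicate 3). Casp4 and Casp8, which encodes a caspase reported to cut gasdermin C, differed by 0.95 ± 0.36 and 0.37 ± 0.14, short of the threshold (adjusted p = 0.135 and 0.144). The granzyme genes Gzmb and Gzma, expressed in cytotoxic lymphocytes, fell by 2.93 ± 0.50 and 2.06 ± 0.42 (adjusted p = 0.0181 and 0.0287, and 0.0725 and 0.106 without MSI2-induced replicate 3). They are also in the lymphocyte marker list, of which 9 of 10 genes fell.

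Of 14 inflammasome sensors and adaptors, 4 fell and 1 rose, with a median difference of -0.23. Nlrp6, a sensor known from gut epithelium, was at 11.15, 11.08 and 11.01 in controls and at 8.15, 9.31 and 8.38 in induced arrays, and fell by 2.47 ± 0.29 (adjusted p = 0.00729). The flagellin sensors Naip5 and Naip6 fell by 2.13 ± 0.19 and 1.62 ± 0.18 (adjusted p = 0.00365 and 0.00589). The Naip genes are close paralogs and could share probes. Pycard, the adaptor ASC that joins sensors to caspase 1, was at 11.36, 10.62 and 10.72 in controls and at 8.78, 9.72 and 8.85 in induced arrays. It fell by 1.79 ± 0.31 (adjusted p = 0.0191, and 0.0814 without MSI2-induced replicate 3). Nlrc4, the partner of the NAIP sensors, differed by 0.21 ± 0.08, short of the threshold (adjusted p = 0.118). The member that rose was the DNA sensor gene Aim2, at 1.24 (adjusted p = 0.047, and 0.158 without control replicate 3).

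Of 8 genes listed as interleukin 1 family cargo, 4 rose and none fell, with a median difference of 0.44. The list also holds the inhibitor genes Il1rn and Il18bp. Il1f9, which encodes interleukin 36 gamma, rose from 4.42 ± 0.25, in the floor range, to 9.13 ± 0.67 (SD, n = 3 each; adjusted p = 0.00219). The antagonist gene Il1rn rose by 3.54 ± 0.37 and the alarmin gene Il33 by 2.50 ± 0.37 (SE, adjusted p = 0.00539 and 0.0126, the latter 0.0586 without control replicate 3). Il1f6, which encodes interleukin 36 alpha, rose by 0.32 with all values at or below the floor range (adjusted p = 0.0399, 0.0506 with arrays paired by number and 0.14 without control replicate 2). The cargo best known from GSDMD pores did not pass, with Il18 at -0.25 ± 0.42 and Il1b at 0.41 ± 0.25 (adjusted p = 0.758 and 0.343). Il1b was at 5.72, 5.11 and 5.11 in controls, just above the floor on replicates 2 and 3, which limits its reading.

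Of 10 genes of membrane rupture and repair, 1 rose and none fell, with a median difference of 0.00. Vps4b, an ATPase of the ESCRT machinery that removes damaged membrane, rose by 0.58 ± 0.11 (adjusted p = 0.0249, and 0.0957 without MSI2-induced replicate 3). Ninj1, which ruptures the membrane after pore formation, was at -0.39 ± 0.11, with groups that did not overlap, and missed the threshold (adjusted p = 0.0617). Of 8 necroptosis and death receptor genes, Ripk3, the kinase that activates MLKL, rose by 0.78 ± 0.17 (adjusted p = 0.0327, and 0.122 without control replicate 3), and no other passed.

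Of 8 genes reported to regulate gasdermin transcription, 2 rose and 3 fell. Irf1 fell by 1.65 ± 0.22 (adjusted p = 0.0096, and 0.0522 without control replicate 3), and its other, dimmer probe set was at -0.26 and did not pass. Irf8 fell by 0.82 ± 0.14 and Stat6, the transcription factor activated by interleukins 4 and 13, by 0.88 ± 0.16 (adjusted p = 0.0197 and 0.0207, and 0.075 and 0.0874 without control replicates 2 and 3). Rela, an NF-kappaB subunit, rose by 0.80 ± 0.09, and the TGF-beta receptor Tgfbr2 by 1.97 ± 0.29 (adjusted p = 0.00642 and 0.0131, the latter 0.0632 without MSI2-induced replicate 3). Irf2, reported to drive Gsdmd, differed by -0.42 ± 0.12, short of the threshold (adjusted p = 0.0653). It passed with renewed quantile normalization, with array weights and without control replicate 1 (adjusted p = 0.0361, 0.00931 and 0.0146).

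In the list of interleukin 4 and 13 signalling and epithelial type 2 genes, 3 of 15 rose and 2 fell. The receptor chain Il4ra was at 9.43, 9.95 and 10.22 in controls and at 11.35, 11.41 and 11.43 in induced arrays. It rose by 1.53 ± 0.20 (adjusted p = 0.00886), while Stat6 fell. Socs1, a feedback inhibitor, rose by 1.33 ± 0.16 (adjusted p = 0.00767), and Tyk2, a kinase of the receptor complex, fell by 0.96 (adjusted p = 0.0271, and 0.107 without MSI2-induced replicate 3). Retnlb, a goblet cell gene induced in type 2 responses, was at -0.58 ± 0.56 with overlapping groups (adjusted p = 0.575), but at -1.22 without control replicate 1, where it passed (adjusted p = 0.0208).

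**Figure D5:**
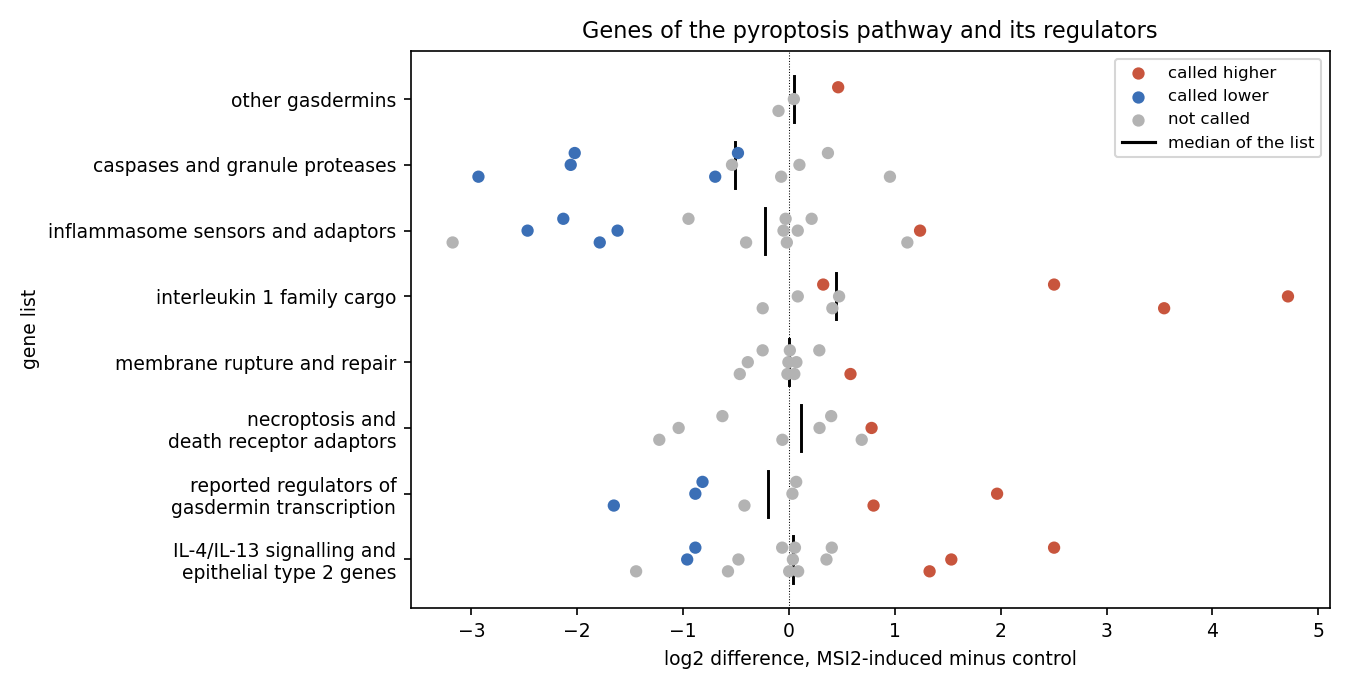
Log2 difference, MSI2-induced minus control (horizontal axis), of each measured gene in 8 lists around the gasdermins (vertical axis), with genes called higher in red, called lower in blue and not called in grey, and the list median as a bar. Inflammasome sensors reach -2.47 among called genes and interleukin 1 family cargo reaches 4.71.

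Of 22 pathway genes past the threshold, at most 4 a list by lowest p plus those of the fixed set, 10 passed in each of the 6 fits that leave out 1 array. These were Casp1, Casp6, Nlrp6, Naip5, Naip6, Il4ra, Il1f9, Il1rn, Rela and Socs1, with a highest adjusted p of 0.0472 for Il4ra without MSI2-induced replicate 3.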

How the data were processed

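Jejunal epithelial RNA from 6 mice was hybridised to Affymetrix Gene 1.0 ST arrays. The deposited values are log2 expression per probe set, made by the authors with RMA in Partek, per the submitters' processing notes, which are used here without versions. No label or header names a build for these values, so RefSeq served only for names, neighbours and promoters. Of 28350 probe sets, 21780 named 1 gene, 1618 several and 4952 none in the platform annotation. Of the 1-gene probe sets, 21689 matched RefSeq.

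Differences were fitted with limma 3.58.1 (lmFit, eBayes) in R 4.3.3 on all probe sets, with group as the only term. P-values were Benjamini-Hochberg adjusted over all of them, and called means under 0.05. Each gene outside the family was read by its brightest 1-gene probe set. The number of arrays limits the precision. P-values set each difference against the spread within groups of these samples, moderated over all probe sets.

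The members and gene lists were chosen with earlier results of these data known. Named genes were all members, up to 4 called genes with the lowest p per list, a fixed set of pathway genes, the 2 nearest protein-coding genes on each side of a locus, and the 5 genes most like Gsdmc2 and Gsdmd. Casp12, Aim2 and Tyk2 were named after their values were seen. Same-numbered arrays of the 2 groups deviated together from their group means over all probe sets (r of 0.47, 0.36 and 0.12), so the numbers were treated as pairing them in a second fit. Deviations within a group cancel, so these are not independent, and no label says what a number shares. Alternatives changed the block, filter, normalization, prior, weights, threshold or arrays used, or added animal sex. Control replicate 2 and MSI2-induced replicates 1 and 2 read as male and the other arrays as female, so sex was not balanced between groups.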

Additional observations from a re-analysis of the deposited data

How the results depend on the processing

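The gasdermin count of 4 probe sets and the Gsdmc cluster's 3 lower ones became 2 and 2 with a sex block and 0 and 0 at an adjusted p under 0.01. Leaving out 1 array gave 0 to 5 and 0 to 4. Pathway genes, 12 higher and 13 lower, became 7 and 7 with a sex block and 5 and 6 at an adjusted p under 0.01. They were 16 and 22 with array weights, and 5 to 14 and 5 to 22 when 1 array was left out. With the replicate block the 4 counts were 6, 4, 14 and 16. Shares over all probe sets under these alternatives are not given, so the changes are not read as particular to gasdermins or pathway genes. The block added Gsdmd, the Gsdmc2/Gsdmc4 probe set, Asap1, Naprt and Ormdl3, removed Il1f6 and Casp12, and changed no other call of a gasdermin probe set, named pathway gene or neighbour. No difference of a gasdermin probe set or named gene that passed changed sign. Gasdermin probe sets, named genes and neighbours, passing or not in the main fit, gave 1020 values under an alternative. Of these, 885 kept their side of the threshold, 35 gained it and 100 lost it. The 885 include values that passed in neither fit, so they do not measure how stable the calls are. Filters on low values left 6 (above the 25th percentile) or 5 (mean above 6) of the 9 gasdermin probe sets. Readings in the floor range give no level, shared probe sets do not separate paralogs, and 3 arrays a group limit every call.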
